A study of Mus musculus with 68 samples.

Results

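Toll-like receptors and NOD proteins are sensors of microbial products, and the 9 genes described here encode 3 Toll-like receptors, 1 co-receptor, 1 cytosolic sensor and 4 of the proteins that carry their signals. Tlr2 recognises bacterial lipoproteins, Tlr3 double-stranded RNA and Tlr4 lipopolysaccharide, and Cd14 is the co-receptor that hands lipopolysaccharide to Tlr4. Myd88 is the adaptor shared by most Toll-like receptors, Irak2 is a kinase of the complex that Myd88 nucleates, and Traf6 is the ubiquitin ligase that the complex engages. Nod1 is a cytosolic sensor of bacterial peptidoglycan, and Ripk2 is the kinase that Nod1 recruits. Both arms end in activation of NF-kB and MAP kinases. Fibroblasts use these receptors to respond to microbes, and endoplasmic reticulum (ER) stress is known to feed into NF-kB signalling as well. The genes were picked by name for their place in the pathway, at a time when earlier results of these data were known. All 9 of the 9 were listed in the data, out of 13197 genes listed for the founders and 12803 for the crosses.

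RNA was sequenced from mouse embryonic fibroblasts (MEFs) of 8 founder strains and 5 F1 crosses, treated for 4 h with 2 ug/ml tunicamycin (TM), which blocks N-glycosylation in the ER, or with 0.1% DMSO as control. The strains were 129S1Sv/ImJ (129), A/J (A), C57BL/6J (B6), CAST/EiJ (CAST), NOD/ShiLtJ (NOD), NZO/H1LtJ (NZO), PWK/PhJ (PWK) and WSB/EiJ (WSB), and the crosses (x129, xCAST, xNOD, xNZO and xWSB) paired a B6 mother with a father of the named strain. Each genotype was 1 pool of MEFs from several female embryos of a single litter, so that a strain and its pool cannot be told apart. There were 40 founder libraries (18 control, 22 TM) and 28 F1 libraries (14 control, 14 TM), with 2 or 3 per genotype and treatment. No source used here gave separate MEF isolations for the replicates, so p-values measure the spread between these libraries, which may be technical. The 38 founder libraries whose reads could be recovered held 7091923 to 21530282 reads on genes and F1 libraries 6442976 to 29528457. A normalised value here is the number of reads on a gene scaled to the library's size, a count relative to library size that is not divided by gene length. Founders and crosses were normalised apart, and no level was tested between them.

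The treatment and the cell type were checked first. Hspa5, the main ER chaperone, rose 5.75- to 8.32-fold over the 8 strains and 6.66- to 8.80-fold over the 5 crosses, and Ddit3, Herpud1 and Xbp1 also rose on average in both sets. The 10 fibroblast markers summed to 13112 to 54704 in every library. The median of their sum was also lower with TM, at 26610 against 37275 in control in the founders and 21773 against 24316 in the crosses. Of 17 myeloid markers, 15 were listed for the founders, with summed values of 10.1 to 75.5 in controls and 7.34 to 58.5 with TM, and 9 for the crosses, with 6.40 to 32.7 and 3.47 to 13.5. The median of this sum was lower with TM than in control in 13 of 13 genotypes, and of the 15 listed in founders, Csf1r, Cd68, Lyz2, Laptm5 and Cd53 were above 0 in every founder library. The medians were 5.18 for Csf1r and 6.41 for Lyz2, while C1qc and Tyrobp were each at 0 in 13 of 40 libraries. In all, 3 libraries stood apart with higher sums of myeloid markers than the others of their group, 49.5 in WSB control replicate 2 against 10.1 in the other WSB control, 32.7 in xNOD control replicate 3 and 30.0 in xNZO control replicate 3. The first 2 also had the highest sums of endothelial and epithelial markers among the controls of their set. These were 17.9 and 8.56 in WSB control replicate 2 (founder control medians 3.71 and 2.05). In xNOD control replicate 3 they were 17.3 and 5.41 (F1 control medians 2.25 and 1.71). In bulk RNA, fewer cells of a type and less RNA per cell cannot be told apart.

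The start regions of Tlr2, Nod1 and Traf6 are shown because these genes moved with TM in the founders, Tlr2 and Traf6 up and Nod1 down. The letters come from RefSeq (GRCm38.p6) and run 5′ to 3′ on the gene's own strand up to the start of transcription. Capitals mark matches to an NF-kB motif (the kappaB consensus) or to the GC box GGGCGG. The Tlr2 stretch, on the minus strand at chr3:83841768-83841858, stops where the GENCODE annotation places the first exon. The Nod1 stretch is at chr6:54972613-54972862 on the minus strand and the Traf6 stretch at chr2:101678170-101678419 on the plus strand.
Tlr2: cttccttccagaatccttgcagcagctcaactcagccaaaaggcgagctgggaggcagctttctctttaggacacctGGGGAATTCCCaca
Nod1: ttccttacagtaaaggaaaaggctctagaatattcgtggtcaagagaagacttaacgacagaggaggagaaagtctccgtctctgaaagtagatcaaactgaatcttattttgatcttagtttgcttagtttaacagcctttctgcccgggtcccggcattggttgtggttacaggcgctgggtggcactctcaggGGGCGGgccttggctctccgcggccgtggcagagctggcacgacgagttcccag
Traf6: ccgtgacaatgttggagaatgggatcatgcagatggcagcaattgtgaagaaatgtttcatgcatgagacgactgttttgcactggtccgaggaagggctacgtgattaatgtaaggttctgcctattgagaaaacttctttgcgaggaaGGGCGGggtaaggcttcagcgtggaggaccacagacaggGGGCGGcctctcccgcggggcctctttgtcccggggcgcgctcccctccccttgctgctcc

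Of the 9 genes, 6 (Tlr2, Tlr3, Myd88, Nod1, Irak2 and Traf6) were in the RefSeq table of start regions, and Tlr4, Cd14 and Ripk2 were not. On both strands of the 250 bases before the start, the NF-kB motif was found in Tlr2 and Tlr3, and in 7.25% of the 32851 start regions in the table. In Tlr2, overlapping matches on the 2 strands covered positions -173 to -163 before the RefSeq start. The GC box was found in 4 of the 6 genes and in 32.7% of all start regions. The ER stress motifs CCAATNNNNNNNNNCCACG (0.113% of all start regions), TGACGTGG (0.563%) and TGATGNAAT (0.816%), the AP-1 motif TGANTCA (6.75%) and the CRE TGACGTCA (1.55%) had no match in any of the 6. These are matches of letters in 1 window per start, and say nothing of binding.

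At rest, the 3 Toll-like receptors had the lowest levels of the group. Per kilobase of annotated exon (GENCODE vM21, GRCm38), the median control value over the founders was 34.1 for Ripk2, 13.3 for Myd88, 8.94 for Irak2 and 3.49 for Traf6. Among the sensors it was 4.52 for Nod1, 2.52 for Cd14, 1.05 for Tlr2, 0.393 for Tlr3 and 0.262 for Tlr4. The F1 crosses gave the same order of the 9 genes, from 22.0 for Ripk2, 9.38 for Myd88 and 7.51 for Irak2 down to 0.717 for Tlr2, 0.210 for Tlr3 and 0.168 for Tlr4. Reads per founder library ranged from 650 to 4652 for Ripk2 but from 11 to 371 for Tlr2, 1 to 66 for Tlr3 and 2 to 43 for Tlr4. Counting error therefore weighs most on Tlr3 and Tlr4.

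Tlr2 was the gene of the 9 with the largest average change in both sets. It lies on chromosome 3 (83836272 to 83841767, minus strand, GRCm38) with 3 exon blocks and no exon overlap with another annotated gene. Its normalised values in control MEFs were 5.34 and 7.94 in 129, 3.28, 3.46 and 3.50 in A, 2.94 and 4.25 in B6, and 2.31 and 2.54 in CAST. With TM they were 9.86, 10.6 and 11.6 in 129, 11.2, 11.9 and 12.0 in A, 10.0 and 10.2 in B6, and 5.22 and 6.09 in CAST. In the other strains, control values were 2.72 and 2.96 in NOD, 2.36 and 3.02 in NZO, 3.88, 4.08 and 4.10 in PWK, and 1.62 and 2.11 in WSB. TM values there were 5.83, 7.75 and 8.72 in NOD, 6.75, 7.43 and 9.42 in NZO, 22.7, 23.9 and 24.6 in PWK, and 2.34, 3.12 and 3.65 in WSB. Every TM library lay above every control library of its own strain in 8 of 8 strains. With 2 or 3 libraries a group, such separation can arise from spread alone. The share of all genes separate in this way was not counted, here or for the counts below. PWK stood highest with TM, and WSB lowest in both conditions.

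**Figure D1:**
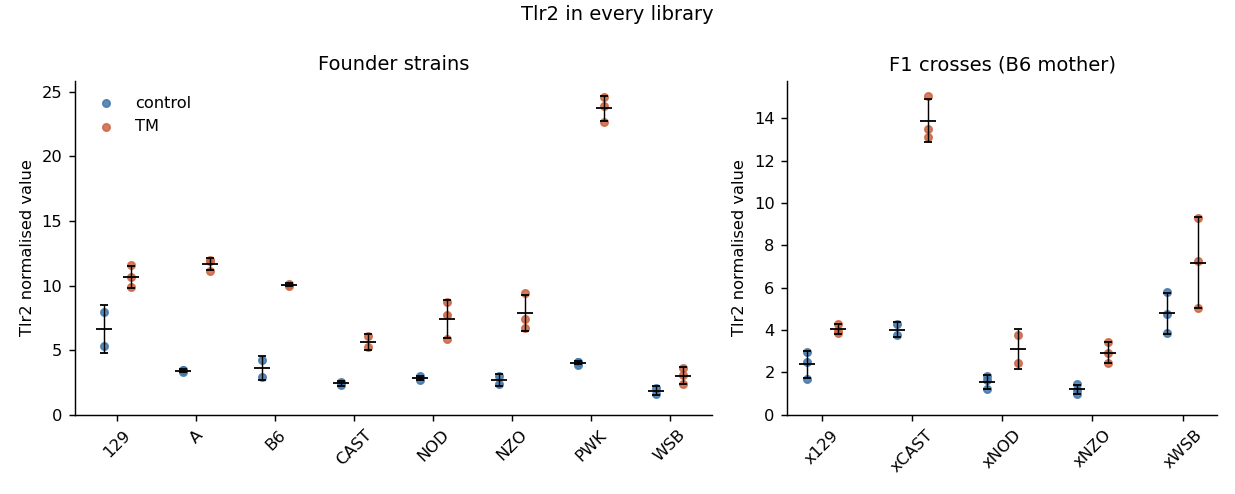
Tlr2 normalised value (y axis) in each library (points) of the 8 founder strains (left) and the 5 F1 crosses (right), control in blue and TM in orange, with the mean (bar) and SD. The 3 PWK TM libraries lie between 22.7 and 24.6, above all other founder libraries, and the TM points of every founder strain lie above its control points.

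Within strains, a gene was called induced or lowered with an adjusted p below 0.01 (limma on log2 of the value plus 0.1, Benjamini-Hochberg) and a change of at least 1.5 fold, on the log2(value + 0.1) scale. Tlr2 was induced in A by 3.36 fold (log2 1.75 ± 0.21 SE, adjusted p = 0.0071), in B6 by 2.79 fold (1.48 ± 0.19, adjusted p = 2.4e-05), in CAST by 2.28 fold (1.19 ± 0.22, adjusted p = 0.0095) and in PWK by 5.78 fold (2.53 ± 0.12, adjusted p = 9.4e-09). It was the sole member induced in each of these strains, 1 of 9, where 0.346% of genes tested were induced in A, 5.04% in B6, 2.54% in CAST and 6.36% in PWK. In NOD (log2 1.34, adjusted p = 0.0105), NZO (1.51, adjusted p = 0.035), 129 (0.70, adjusted p = 0.137) and WSB (0.67, adjusted p = 0.205) the change did not pass the limma threshold, though edgeR's quasi-likelihood test on the recovered reads called it in NOD (adjusted p = 0.0096). No member was called induced by limma in 129, NOD, NZO or WSB, where 0.315%, 1.45%, 0.32% and 2.85% of genes tested were. In these 4 strains, 2, 2, 1 and 1 of the 9 members were higher with TM at an unadjusted p below 0.05, where 12.9%, 11.3%, 10.4% and 16.8% of all genes were. The call in A was lost when any 1 of its 6 libraries was left out (adjusted p = 0.0178 to 0.0584), with the change staying at log2 1.72 to 1.78. The call in CAST was lost without TM replicate 3, a fit that left 1 TM library (log2 1.08). Calls were also gained, in NOD without control replicate 1 (adjusted p = 0.0044) or control replicate 3 (0.0033) and in NZO without TM replicate 3 (9.7e-06).

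The F1 crosses gave the same direction for Tlr2. Control values were 1.71, 2.48 and 2.94 in x129, 3.76 and 4.27 in xCAST, 1.20, 1.62 and 1.84 in xNOD, 0.996, 1.19 and 1.43 in xNZO, and 3.84, 4.77 and 5.78 in xWSB. TM values were 3.84, 3.96 and 4.29 in x129, 13.1, 13.5 and 15.1 in xCAST, 2.46 and 3.79 in xNOD, 2.45, 2.93 and 3.43 in xNZO, and 5.03, 7.24 and 9.29 in xWSB. TM and control libraries did not overlap in 4 of the 5 crosses, and overlapped in xWSB. The same-numbered xWSB libraries deviated together (correlations of 0.12 to 0.26 over 3 pairs), and Tlr2 was higher with TM in 3 of the 3 pairs, but with the replicate number as a term it did not pass either (log2 0.55 ± 0.28 SE, limma adjusted p = 0.379). Tlr2 was induced in xCAST by 3.40 fold (log2 1.76 ± 0.18 SE, adjusted p = 0.00012 by limma). This was 1 of 9 members, against 2.52% of genes tested. It did not pass in x129 (0.77, adjusted p = 0.0257), xNOD (0.95, adjusted p = 0.0508), xNZO (1.22, adjusted p = 0.0338) or xWSB (0.55, adjusted p = 0.48), and no member was called induced there by limma or edgeR, against 4.88%, 3.69%, 1.44% and 0.185% of genes. In these 4 crosses, 2, 3, 3 and 0 of the members were higher at an unadjusted p below 0.05, where 19.7%, 20.2%, 12.6% and 6.89% of all genes were.

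The size of the Tlr2 change differed between founder strains. The test of a strain by TM interaction gave an adjusted p of 0.00265 (limma, all founder libraries), and Tlr2 was the 1 member of 9 to pass, against 0.174% of genes tested. The strain changes ran from log2 0.67 in WSB and 0.70 in 129 to 1.75 in A and 2.53 in PWK. The difference rested on PWK above all. Without the PWK libraries the adjusted p was 0.99992 (unadjusted p = 0.00784), without 129 it was 0.0207, and without any other single strain it was 0.00217 to 0.00633. It was also above 0.01 without PWK TM replicate 1 (0.0111), PWK TM replicate 2 (0.0103) or PWK control replicate 3 (0.0104), each left out alone, and 0.01003 by edgeR. The summed myeloid markers of PWK were 17.3 to 18.6 in control and 14.4 to 15.4 with TM, where the medians over all founder libraries were 33.0 and 15.3, and their part in the result was not tested. In the crosses no member passed the interaction (Tlr2 unadjusted p = 0.0242, adjusted p = 0.782, edgeR adjusted p = 0.717), against 0.0547% of genes, and Tlr2 was the 1 member of 9 at an unadjusted p below 0.05, where 6.15% of all genes were.

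**Figure D2:**
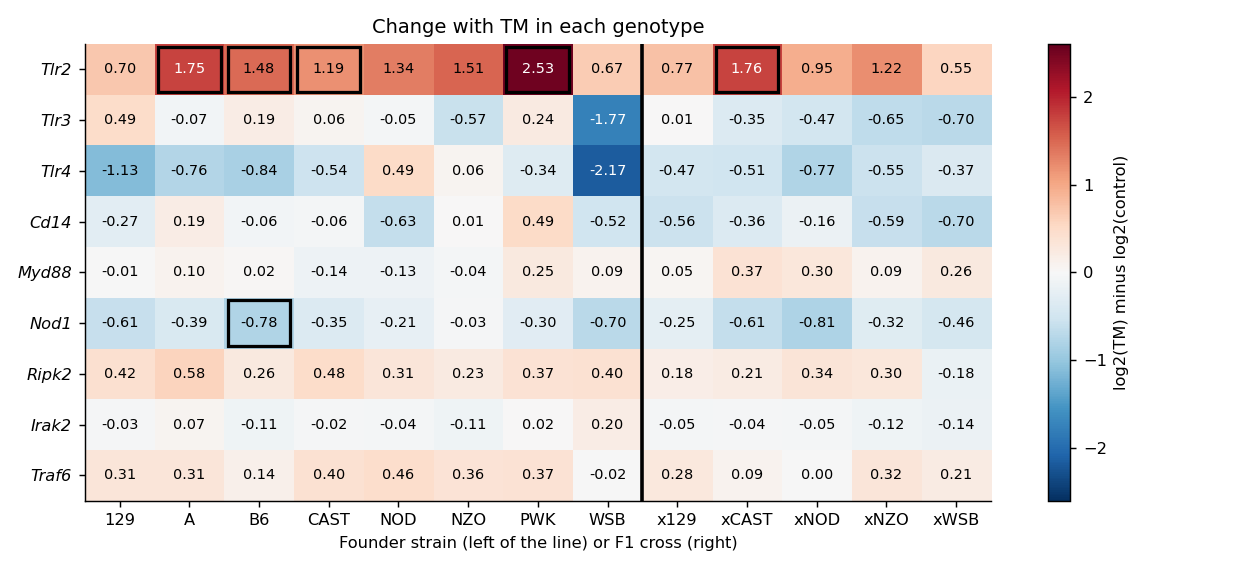
Log2 change with TM of each of the 9 genes (rows) in each of the 13 genotypes (columns), as numbers and colours (red, higher with TM; blue, lower), with boxes around the calls within a genotype. The Tlr2 row is positive in every column, from 0.55 in xWSB to 2.53 in PWK, and the Nod1 row is negative in every column.

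Tlr2 in a cross could be set beside its parents as changes, though not as levels. Against B6 (1.48), the log2 change was 0.70 in 129 and 0.77 in x129, 1.19 in CAST and 1.76 in xCAST, 1.34 in NOD and 0.95 in xNOD, 1.51 in NZO and 1.22 in xNZO, and 0.67 in WSB and 0.55 in xWSB. The x129 change lay between its parents, xCAST above both, and xNOD, xNZO and xWSB below both, with standard errors of 0.18 to 0.30 in the crosses and 0.19 to 0.35 in these parents. No test was made between the sets.

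On average over the 8 strains, Tlr2 rose 2.63 fold (log2 1.395, 95% confidence interval 1.25 to 1.54, adjusted p = 2.5e-16). Ripk2 rose 1.30 fold (0.38, 0.23 to 0.54, adjusted p = 0.000101) and Traf6 1.22 fold (0.29, 0.13 to 0.46, adjusted p = 0.00331). These were 3 raised members of 9, where 20.5% of genes tested were raised. Nod1 fell to 0.747 of its control level (log2 -0.42, -0.56 to -0.28, adjusted p = 8.2e-06) and Tlr4 to 0.635 (-0.66, -1.07 to -0.24, adjusted p = 0.00771), 2 lowered members of 9, against 21.9% of genes tested. The median of the 9 average changes was log2 -0.0049, and that of all 13197 genes -0.037. Over the 5 crosses, Tlr2 rose 2.07 fold (1.05, 0.82 to 1.28, adjusted p = 5.7e-08) and Myd88 1.16 fold (0.22, 0.10 to 0.33, adjusted p = 0.00243), 2 of 9 against 16.9% of genes. Nod1 fell to 0.712 (-0.49, -0.66 to -0.32, adjusted p = 3.1e-05) and Cd14 to 0.720 (-0.47, -0.77 to -0.18, adjusted p = 0.0092), 2 of 9 against 18.7% of genes. The median of the members was -0.081 and that of all 12803 genes -0.040. The sign of the average was the same in both sets for 9 of the 9 members, a count with no share of all genes beside it. In the founders, the sign of Irak2 (-0.0049) turned in 13 of 40 fits without 1 library, and that of Cd14 in 1. The test was passed in both sets by Tlr2 and Nod1.

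**Figure D3:**
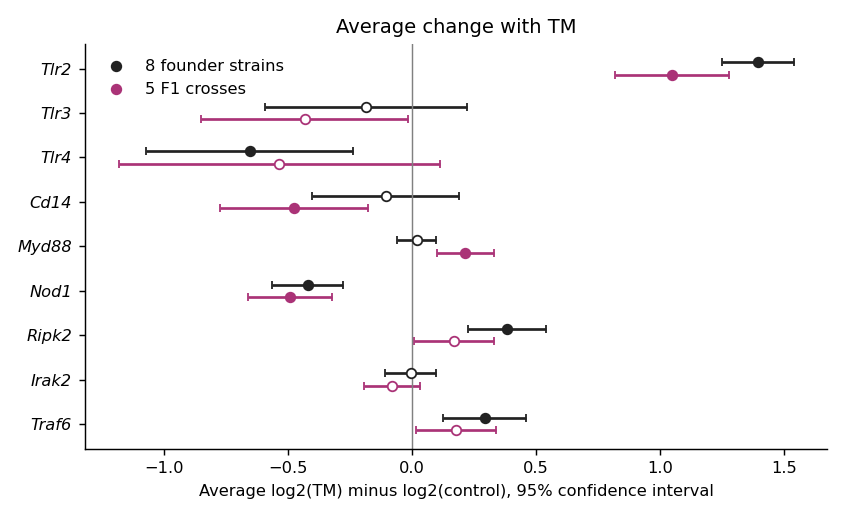
Average log2 change with TM of each gene over the 8 founder strains (black) and the 5 F1 crosses (purple), with 95% confidence intervals and filled points where the adjusted p was below 0.01. Tlr2 stands at 1.395 and 1.05, Nod1 at -0.42 and -0.49, and the intervals of Irak2 span 0 in both sets.

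Nod1, the other main sensor of the group, moved against Tlr2. It lies on chromosome 6 (54923949 to 54972612, minus strand) in 16 exon blocks. In B6 its values were 11.8 and 12.8 in control and 6.98 and 7.27 with TM, a fall to 0.583 (log2 -0.78 ± 0.15 SE, adjusted p = 0.00065). This was the 1 lowered call among the 9 members in B6, where 3.22% of genes were lowered. It was lost without B6 control replicate 3, a fit that left 1 control library (log2 -0.72). Without WSB TM replicate 3, Nod1 was called lowered in WSB as well (adjusted p = 0.0061). Values in control and with TM were 20.6 and 22.2 against 10.2, 15.5 and 17.4 in 129, 25.9, 27.7 and 29.5 against 16.4, 22.2 and 25.8 in A, and 15.3 and 19.9 against 12.6 and 14.8 in CAST. They were 22.4, 22.8 and 23.1 against 17.4, 18.8 and 19.3 in PWK, and 25.0 and 26.4 against 13.6, 13.8 and 21.1 in WSB. In these 6 strains all TM libraries lay below all controls, a count with no share of all genes beside it. They overlapped in NOD, with 16.8 and 24.5 against 16.4, 17.8 and 18.5, and in NZO, with 27.6 and 29.6 against 27.1, 27.6 and 29.3. Nod1 also lay wholly below control in xCAST, xNOD and xNZO, with the lowest adjusted p in xNOD (log2 -0.81, adjusted p = 0.0171). It was called lowered in xCAST without TM replicate 3 (adjusted p = 0.0084) and in xNOD without TM replicate 2 (adjusted p = 0.0067), the latter leaving 1 TM library that is assumed to vary like the controls.

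No member was called lowered by limma in the other 12 genotypes. The shares of all genes lowered there were 0.00787% in 129, 0.00786% in A, 0.478% in CAST, 0.165% in NOD, 0.0078% in NZO, 4.3% in PWK and 4.2% in WSB, and 1.36% in x129, 1.2% in xCAST, 4.6% in xNOD, 0.152% in xNZO and 0.0161% in xWSB. Across these 12 genotypes, 0 to 2 members each were lower at an unadjusted p below 0.05, where 5.82% (xWSB) to 25% (xNOD) of all genes were, and edgeR called no member lowered. For most members other than Tlr2, then, the change within a single genotype of 2 or 3 libraries a group was not detectable, and the averages over a set carry the calls.

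Ripk2, the kinase next to Nod1, was higher with TM in 8 of 8 strains, with changes of log2 0.23 in NZO to 0.58 in A, and in 4 of 5 crosses. Its values were 180.5 and 193 in control and 255 and 266 with TM in CAST, the strain with the highest level, and 63.0 and 63.6 against 82.2, 85.1 and 87.7 in 129, the strain with the lowest. Groups did not overlap in 5 strains, again with no share of all genes beside the count. Over the crosses the average was log2 0.17 and did not pass (adjusted p = 0.0796), with xWSB at -0.18. Traf6, at chromosome 2 (101678429 to 101701669, plus strand), was higher in 7 of 8 strains, the exception being WSB (-0.02). It was separate from control in 5 strains, among them NOD with 26.4 and 28.9 against 36.6, 38.0 and 40.2. In the crosses its average was 0.18 (adjusted p = 0.0619).

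**Figure D4:**
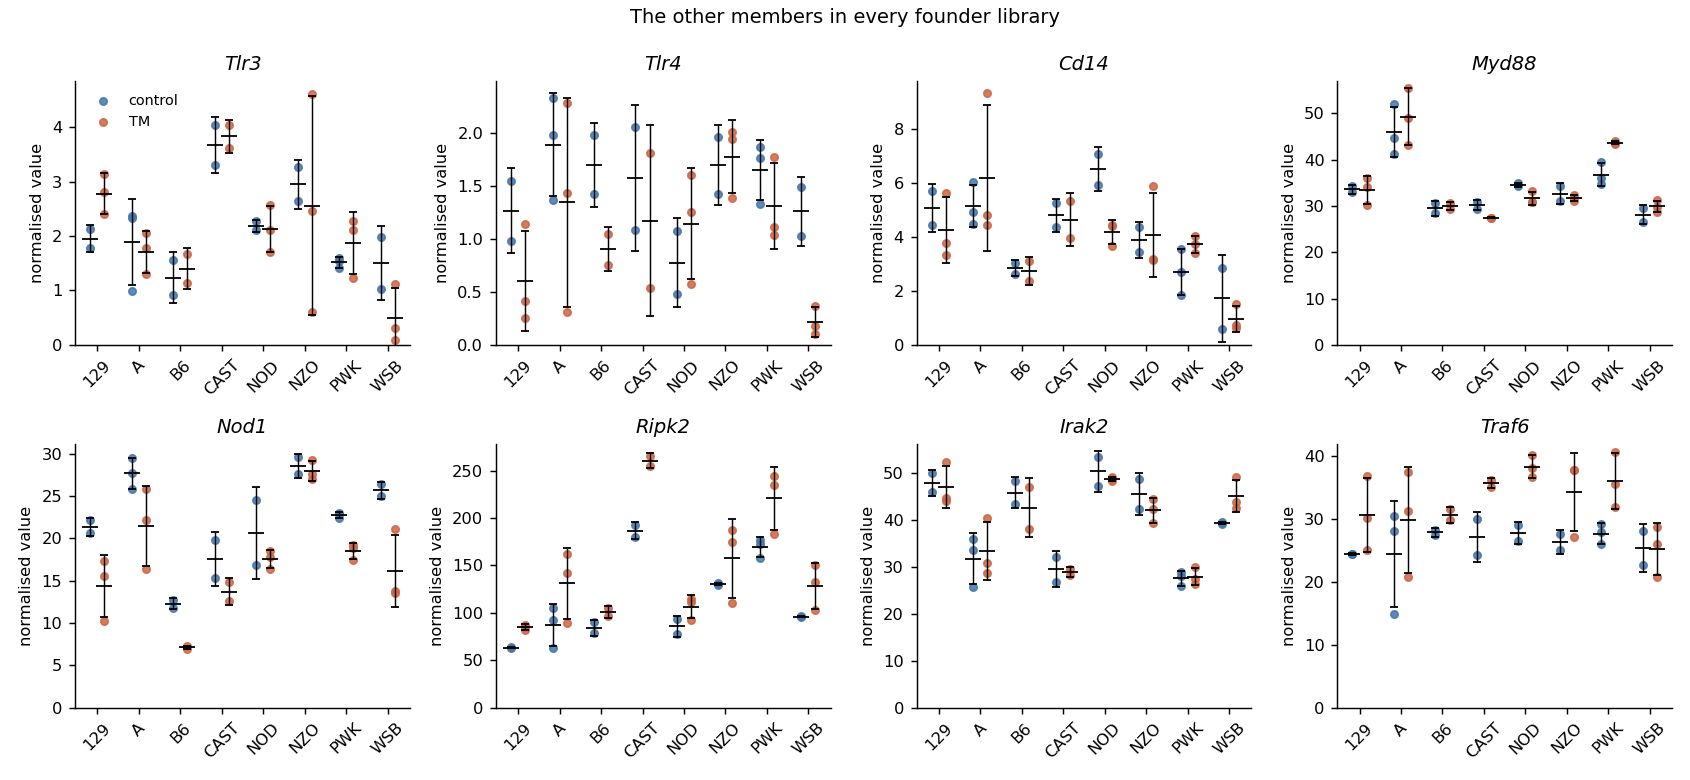
Normalised value (y axes, each from 0) of the 8 members other than Tlr2 in each founder library (points), control in blue and TM in orange, with the mean (bar) and SD. Nod1 lies lower and Ripk2 higher with TM in most strains, Irak2 shows no common direction, and the strain order of Ripk2, with CAST highest, is the same in the top place for both treatments.

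Tlr4 (chromosome 4, 66827584 to 66930284, plus strand) is the most weakly measured of the group. Founder values ran from 0.478 to 2.32 in control (median 1.46) and from 0.101 to 2.28 with TM (median 1.08). Control and TM were separate in B6, with 1.42 and 1.98 against 0.754 and 1.05, and in WSB, with 1.03 and 1.49 against 0.101, 0.178 and 0.370. The latter rests on 2 to 12 reads in the libraries with recovered reads. The value of 1.49 came from WSB control replicate 2, where myeloid markers summed to 49.5 against 10.1 in the other control. The median of these markers was lower with TM in every strain, and their part in the Tlr4 result was not tested. The average fall of Tlr4 in the founders lost its call in 19 of 40 fits that each left 1 library out. It also lost the call by edgeR (adjusted p = 0.0414) and in limma with a replicate block (adjusted p = 0.0108). Its direction held, from -0.75 to -0.56 in the fits without 1 library and at -0.53 by edgeR. With a pseudocount of 1 the average was -0.31 (adjusted p = 0.0130). Cd14, on chromosome 18, fell on average in the crosses but lost that call in 21 of 28 fits without 1 library. Without the xNOD and xNZO controls of high myeloid markers the change was -0.43 (adjusted p = 0.0229). Cd14 is itself strongly expressed by myeloid cells, and the median of the summed myeloid markers was lower with TM in every cross, whose part in the result was not tested. In the founders, Cd14 averaged -0.11 (adjusted p = 0.557), and in WSB control replicate 2, the library of highest myeloid markers in that strain, it was 2.85 against 0.588 in the other control.

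Tlr3, Myd88 and Irak2 did not pass on average in the founders. Tlr3 (chromosome 8, 45395665 to 45411080, minus strand) averaged log2 -0.19 (-0.59 to 0.22), with 4 strains up and 4 down. Its exons share 381 bases with the antisense gene Gm45542, and whether reads were counted by strand was not stated. Myd88 (chromosome 9, 119335934 to 119341411, minus strand) averaged 0.02 (-0.06 to 0.10) in the founders, and rose in the crosses, with all TM above all control libraries in xCAST, xNOD and xWSB. Its exons share 290 bases with Acaa1a on the opposite strand. Irak2 (chromosome 6, 113638467 to 113695026, plus strand, sharing 196 exon bases with Gm43963) had the smallest changes of the group, with an average of -0.005 (-0.11 to 0.10) in the founders and -0.08 (-0.19 to 0.03) in the crosses.

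The basal level differed between strains for 5 of the 9 members, in a test of the founder controls against each other (limma, adjusted p below 0.01), where 35.8% of genes passed. They were Ripk2 (adjusted p = 1.8e-05), Nod1 (0.000261), Irak2 (0.000369), Tlr2 (0.000682) and Myd88 (0.00217). Ripk2 spanned 2.95 fold, from a mean of 63.3 ± 0.45 (SD, n = 2) in 129 to 187 ± 8.9 (SD, n = 2) in CAST, and PWK (169 ± 10.3, SD, n = 3) lay next below CAST with no overlap. Tlr2 spanned 3.56 fold, from 1.86 in WSB to 6.64 in 129. In the order WSB, CAST, NZO, NOD, A, B6, PWK, 129, the neighbours were separate at WSB and CAST, NOD and A, and PWK and 129, and the others overlapped. Nod1 spanned 2.33 fold from B6 (12.3) to NZO (28.6), and B6 lay below every other strain. Irak2 was lowest in PWK (27.7) and highest in NOD (50.4), and Myd88 ran from 28.1 in WSB to 46.0 in A, which lay above every other strain. Cd14 (adjusted p = 0.0139, but 0.00914 by edgeR), Tlr3 (0.0385), Tlr4 (0.172) and Traf6 (0.915) did not pass. Traf6 was the most even, with strain means of 24.4 to 27.8. The summed myeloid markers also differed between the controls of the strains, with medians from 15.3 in 129 to 72.6 in A. Their part in these basal levels was not tested.

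With TM, the order of Tlr2 changed. The strain means with TM rose from WSB (3.04) through CAST, NOD, NZO, B6, 129 and A to PWK (23.7), a span of 7.81 fold, and WSB with CAST, NZO with B6 and A with PWK were the separate neighbours. 129, highest at rest, came after PWK and A. Ripk2 kept 129 lowest and CAST highest under both treatments, and Nod1 kept B6 lowest and NZO highest. In the controls of the crosses, 4 of the 9 members passed the same test, against 21.4% of genes. They were Ripk2 (adjusted p = 5.6e-07), Irak2 (7.8e-05), Tlr2 (0.000235) and Nod1 (0.00472). Ripk2 was again highest in the cross with a CAST father (142 ± 1.85, SD, n = 2) and next highest in x129 (69.4 ± 2.94, SD, n = 3), and Irak2 was highest in xNOD (46.9 ± 0.98, SD, n = 3), as NOD was among the strains. The other 2 did not match in this way. Tlr2 was highest in xWSB (mean 4.79), while WSB was the lowest of the strains. Nod1 was also highest in xWSB (mean 18.3), while NZO was the highest of the strains. The part of myeloid markers in the levels of the crosses was not tested either.

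The wider pathway was described from a list of 71 further genes, of which 59 were listed for the founders. On average over the founders, 22 of the 59 were raised and 10 lowered, with a median of log2 0.03, where 20.5% and 21.9% of all genes tested were. Inhibitors had 7 raised and 3 lowered of 13, ubiquitin ligases 4 and 3 of 11, adaptors and kinases 7 and 2 of 23, receptors and co-receptors 3 and 1 of 8, and receptor chaperones 1 and 1 of 4. The 3 largest rises were Tnfaip3 (3.89 fold, adjusted p = 1.8e-22), the deubiquitinase A20 that restrains NF-kB signalling, Traf1 (3.50 fold, adjusted p = 2.6e-17), a signalling adaptor, and Hsp90b1 (3.48 fold, adjusted p = 1.0e-18), the ER chaperone of Toll-like receptors that is itself an ER stress gene. The 3 largest falls among the genes called were Tlr6 (log2 -0.83, adjusted p = 0.00244), the partner of Tlr2 for diacylated lipopeptides, Peli3 (-0.82, adjusted p = 7.0e-05), an E3 ubiquitin ligase, and Sarm1 (-0.63, adjusted p = 0.0038), a TIR-domain protein. Their mean values were low, at 1.26, 0.923 and 1.22. In the crosses 14 of 55 were raised and 8 lowered, with a median of 0.07, against 16.9% and 18.7% of all genes tested. Tnfaip3 (3.81 fold), Traf1 (2.32 fold) and Hsp90b1 (3.68 fold) rose there too, and Tlr6 (-0.80) and Peli3 (-0.74) fell, while Sarm1 did not pass (-0.48, adjusted p = 0.199).

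Among the 4120 genes that moved on average in the founders and had a mean value of at least 10, those whose 8 strain changes most resembled those of Tlr2 were F2rl1 (Pearson's r = 0.953), Mib2 (0.942) and Fbxo42 (0.940), described with no test, over points that share their libraries and depth. Over the 5 crosses the same r was 0.36, -0.14 and -0.14. The strain changes of F2rl1, a protease-activated receptor, ran from log2 -0.38 to 0.05 and so were of the opposite sign to Tlr2 in most of their range. For Tlr4, which had the next smallest interaction p (unadjusted p = 0.0955), they were Tln2 (0.992), Itpkb (0.980) and Smpd4 (0.977), with 0.944, 0.934 and 0.985 over the crosses. Tlr4 rests on few reads, as given above, and its interaction did not pass in the crosses either (limma unadjusted p = 0.996). Each list holds the highest r among 4120 genes, which selection alone can push up. With no difference between crosses shown for Tlr4, its r over 5 crosses cannot show a shared pattern.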

How the data were processed

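RNA-seq was analysed for 68 libraries. Per the labels and the study's methods, the authors trimmed single-end reads (FastQC and Trimmomatic named), aligned them to strain-specific genomes with TopHat 1.4.1 (GRCm38/mm10), normalised reads per gene with edgeR (TMM) within each set, dropped outlying libraries by principal components, and normalised the rest again. The deposited values are called FPKM but are a signal: whole multiples of 1 step per library, with no sign of division by length. The step gave whole reads (within 0.1 read) for 100% of values in 66 libraries. In PWK TM replicate 2 and WSB TM replicate 1 the step lay so close to 0.1 that it could not be told from rounding, and both stand outside the edgeR fits and depths. F1 tables also held 3 lines naming no gene (15.5 to 24.1% of the summed value), left out here. Symbols came from Ensembl IDs through GENCODE vM21, and for a few genes from the study's supplement.

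Values were tested with limma 3.58.1 (trended) on log2(value + 0.1), keeping genes that reached 0.5 in 2 or more libraries of the fit, because the values are not counts; p-values were adjusted by Benjamini-Hochberg over all genes tested. Calls within a genotype needed an adjusted p below 0.01 and 1.5 fold; averages, interactions and basal effects an adjusted p below 0.01. edgeR 4.0.16 (quasi-likelihood) on recovered reads was an alternative, as were other pseudocounts, filters, scaling, variance priors, a replicate block and leaving out each library. Scripts were tested on simulated data (R 4.3.3, Python 3.11.15). The members and all lists were chosen with earlier results of these data known. All 9 members were named, with the 3 pathway genes raised and the 3 lowered most on average among those called.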

Additional observations from a re-analysis of the deposited data

Results flagged for a closer look

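The change of Tlr2 with TM differed between the founder strains by the interaction test (adjusted p = 0.00265), from log2 0.67 in WSB to 2.53 in PWK, with the PWK and 129 libraries each needed for the call.

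The Myd88 libraries were separate in both directions among the strains. All TM libraries lay below all controls in CAST (log2 -0.14) and NOD (-0.13) and above them in PWK (0.25). None of these 3 changes was called within its strain, and the interaction test over all 8 strains did not pass (unadjusted p = 0.214). The standard errors were 0.13 in CAST and 0.12 in NOD. With 2 or 3 libraries a group, separation can arise from spread alone, and the share of all genes so separated was not counted.

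A further 2 genes of the pathway list, of 59 tested, differed between founder strains by the same test, where 0.174% of all genes passed. Tnfaip3 (adjusted p = 0.000443) rose by log2 0.90 in 129 and 1.53 in WSB at the low end, and by 2.51 in NZO and 2.64 in PWK at the high end. Birc3, which encodes the ubiquitin ligase cIAP2 (adjusted p = 0.0046), rose by 0.67 in 129, 0.80 in WSB and 2.12 in PWK. In the crosses Tnfaip3 also differed (adjusted p = 0.000179), from 1.20 in xNOD to 3.12 in xCAST. It was the 1 gene of 55 tested to pass there, against 0.0547% of all genes. Tlr2 was likewise at its lowest in 129 and WSB and at its highest in PWK among the strains, and at its highest in xCAST among the crosses. This likeness was not tested. The low end in the crosses differed. Tlr2 rose least in xWSB (0.55) and x129 (0.77), where Tnfaip3 rose by 1.81 and 1.90.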

How the results depend on the processing

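Of 441 values of single members under settings other than leaving out a library, 430 kept their side of the threshold and, for average changes, their direction. Interaction and basal tests have no direction, and many of their values lay far from the threshold, so this count says little of calls near it. The values that moved were of Tlr2, Tlr3, Tlr4 and Cd14. Members lowered on average in the founders went from 2 to 1 (Nod1 alone, without Tlr4) with a pseudocount of 1, with a mean value of at least 2, with edgeR and with the replicate block, which also took the Tlr2 call in CAST (adjusted p = 0.0119, leaving 3 of 4 induced calls within strains) and changed no other count. The replicate numbers were shared but did not pair the samples over a set, since the deviations of same-numbered control and TM libraries correlated at a median of 0.0074 (16 founder pairs, 3 above 0.1) and 0.021 (13 F1 pairs, 4 above 0.1, of which 3 were all those of xWSB); a fit of xWSB with the number as a term, chosen after seeing the data, left the calls at 1 and 0. With no trend in the prior variance, induced calls within strains went from 4 to 2 and lowered calls from 1 to 0. Members with a strain by TM interaction went from 1 to 0 with edgeR and without every library of 129 or of PWK (the last 2 and the fit without 2 F1 controls were chosen after seeing the data). In the crosses, induced and lowered calls went from 1 and 0 to 3 and 2 at an FDR of 5%, and to 2 and 1 with 1 fit over the set, and members lowered on average from 2 to 1 with edgeR or without the 2 controls. The cause was not tested. Leaving out 1 library gave 3 to 5 induced and 0 to 2 lowered calls within strains, 1 to 2 members lowered on average and 0 to 1 with an interaction in the founders, and 0 to 1 lowered calls and 1 to 2 members lowered on average in the crosses. The averages of Irak2 and Cd14 in the founders, neither called, ranged from -0.024 to 0.014 and from -0.24 to 0.025. Median-of-ratios scaling moved the median change of all genes by -0.012 (founders) and -0.00095 (F1) and turned no member's direction. With 2 or 3 libraries a group and few reads on Tlr3 and Tlr4, small changes within a genotype were beyond reach.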
